A study of Mus musculus with 18 samples.

Results

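The response of CD26+ normal mammary fibroblasts (NFs) to tumor conditioned medium (CM) was taken from 9 of the 18 libraries of the series. The members were chosen by their labels, as CD26+ NFs kept in control conditioned medium (replicates 10 to 12, n = 3) and CD26+ NFs kept in tumor CM (replicates 13 to 18, n = 6). The other 9 libraries hold CD26- NFs and entered the scaling, the filter on low counts and the shared estimate of the spread between replicates, not the comparison. All cells came from the mammary gland of FVB/n mice and were cultured for 7 days in their medium before poly(A) RNA was sequenced. The comparison asks which genes these fibroblasts change when they receive what tumor cells release.

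CD26 is a membrane peptidase encoded by Dpp4, and in many mouse tissues it marks fibroblasts of the outer connective tissue layers. Fibroblasts that meet tumor cells are usually described along 2 lines, an inflammatory state with secreted cytokines, chemokines, complement and acute-phase proteins, and a contractile, matrix-building state driven by TGF-beta. NF-kB and Stat factors switch on much of the first, and collagens, their modifying enzymes and smooth muscle actin belong to the second.

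Per the study's methods, the fibroblasts were sorted as EpCAM-, CD49f-, CD45- and CD31- cells from pooled glands of several adult females that were either mTmG or carried floxed alleles, Cdh1 F/F among them, without WapCre, on the FVB/n background, and which of these gave each library is not stated. The CM came from cell lines of invasive lobular carcinoma from mice with WapCre and floxed alleles, Cdh1 F/F among them. There, Cre under the milk protein promoter Wap removes E-cadherin from mammary epithelium. Each CM library received the CM of a different line, 13-MCB-17, 10-SJK-221, 18-MCB-12, 13-MCB-44, 13-MCB-90 and 13-MCB-138 for replicates 13 to 18 in this order. Differences between lines are therefore part of the spread between the CM libraries. Nothing states that the cultures of a group came from separate sorts, so p-values measure the spread between these samples, which may be technical. RNA is relative here, and fewer cells of a type and less RNA per cell cannot be told apart.

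Total counts ran from 11594468 to 14585349 per library, and tested genes held at least 99.86% of them. Levels are given as CPM, the usual depth-scaled counts, here with TMM-scaled library sizes. Sorted and cultured cells carried fibroblast RNA in all libraries: the 14 fibroblast markers summed to 82475 to 103678 CPM in control medium and 41181 to 69557 CPM in tumor CM, where 8 of them fell and 4 rose. Of the immune markers 8 of 12, Ptprc, Adgre1 and Itgam among them, were too low to test, as were Pecam1 and 4 of the other 7 endothelial markers. The tested immune markers summed to 19.6 to 22.6 CPM in control medium and 20.6 to 30.5 CPM in tumor CM, with none past the test. Epithelial RNA was present in both groups, and the epithelial markers summed to 767 to 1389 CPM in control medium and 689 to 1655 CPM in tumor CM. None of the 12 well-expressed ones was past the test, and 1 of the 15 tested, at a mean under 5 CPM, fell. Summed fat cell markers ran from 22.04 to 36.99 CPM and from 32.7 to 88.8 CPM, and 1 of the 3 tested rose, a call lost without replicate 11, 12 or 13 or in a fit of the 9 CD26+ libraries alone. Pericyte, Schwann cell and muscle markers overlapped between the groups in their sums, although 1 of the 5 pericyte markers tested rose and 1 fell, and 1 of the 3 endothelial markers tested rose at under 1 CPM. The part of such other cells in the results was not tested. Dpp4, the gene of the sorting marker, was counted 1, 0 and 1 times in the control libraries and 51, 104, 19, 31, 54 and 8 times in the CM libraries (FDR 0.000312 by edgeR). The CM libraries held 0.715 to 7.80 CPM, so Dpp4 was low in both groups. Its mRNA was hardly present in the control cultures although the cells had been sorted for the protein. The study reports that CD26 on CD26+ NFs, by flow cytometry, decreased rapidly in culture.

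Replicate 18, given CM of line 13-MCB-138, stood apart from the other CM libraries. Its median correlation of log2 CPM was 0.979 with the other CM libraries and 0.985 with the control libraries, whereas each of the other 5 CM libraries was closer to its own group. It kept the direction of the group in 1662 of the 1755 well-expressed genes that rose and in 1456 of the 1648 that fell, with smaller steps, and these genes were chosen with it in the fit. The count of a list without it is given where it moved by over 1.5 times.

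Of 14273 genes tested with the quasi-likelihood test of edgeR, 2169 rose (15.2%) and 1918 fell (13.4%) at an FDR under 0.05, where FDR is the Benjamini-Hochberg adjusted p over all tested genes. Among the 10474 genes that were well expressed, with a mean of at least 5 CPM over the 9 libraries, 1755 rose (16.8%) and 1648 fell (15.7%). Without replicate 18 the well-expressed counts were 1998 and 2155. Most steps were small. The median size of the log2 fold change of well-expressed genes past the FDR was 0.42, and 348 of them rose and 144 fell by over 1 on the log2 scale. At the study's limit of 2 on the log2 scale, 1.6% of all tested genes rose and 0.413% fell, and 102 well-expressed genes rose (0.974%) and 23 fell (0.22%). The 59 fallen genes among all tested were 94 without replicate 18 and 99 without the low-count filter. The CM libraries lay wholly above the control libraries in 1605 well-expressed genes (15.3%) and wholly below in 1403 (13.4%). The median log2 fold change of all well-expressed genes was -0.01. In what follows rose and fell mean past this FDR, and the median of a gene list is that of the log2 fold changes of its well-expressed members. The error of a log2 fold change is its SE from the fit.

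**Figure D1:**
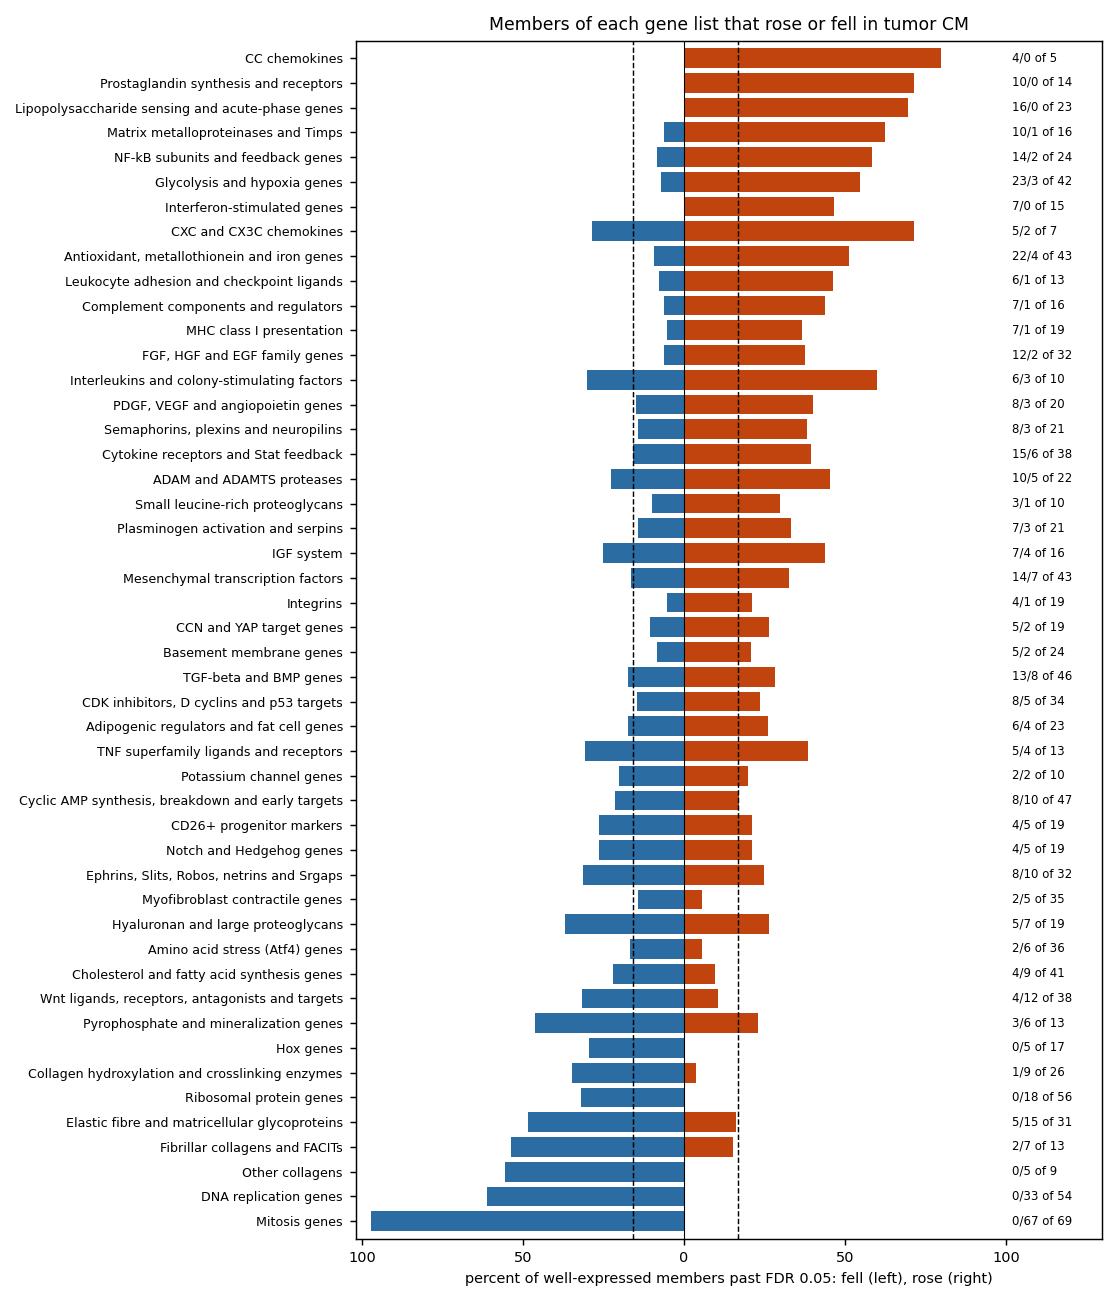
Share of the well-expressed members of 48 gene lists that fell (left bars, percent) or rose (right bars, percent) in tumor CM, with counts risen/fallen of all at the right. The dashed lines mark the shares over all well-expressed genes, 15.7% fallen and 16.8% risen, and the CC chemokines stand at the top and the mitosis genes at the bottom.

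Most well-expressed chemokines, small secreted proteins that attract leukocytes, rose in tumor CM. Of 5 well-expressed CC chemokines 4 rose, with a list median of 2.59, and of 7 CXC and CX3C chemokines 5 rose and 2 fell, with a median of 2.67. Cxcl1, a ligand of the neutrophil receptor Cxcr2, measured 6.88, 5.93 and 5.94 CPM in control medium and 35.6 to 118 CPM with a median of 77.8 in tumor CM (log2 fold change 3.68 ± 0.32, FDR 6.15e-07). Cxcl5, another Cxcr2 ligand, measured 56.4, 62.1 and 52.0 CPM and then 362 to 1024 CPM with a median of 667 (log2 fold change 3.65 ± 0.34, FDR 1.07e-06). Cxcl3 went from 0.567, 0.222 and 0.816 CPM to a range of 7.51 to 32.0 CPM with a median of 22.5 (log2 fold change 5.34 ± 0.58, FDR 5.04e-06). In all 3 genes the groups were apart, with replicate 18 the lowest CM library. The eosinophil attractant Ccl11 rose from 9.87, 12.0 and 11.1 CPM to a range of 56.7 to 142 CPM with a median of 102 (log2 fold change 3.19 ± 0.28, FDR 6.15e-07), and Cxcl16, which also serves as a scavenger receptor, rose by 1.26 ± 0.16 on the log2 scale (FDR 2.5e-05). The fall of the other two ran against this trend. Cx3cl1, the membrane-bound fractalkine, measured 208, 231 and 219 CPM in control medium and 37.7 to 119 CPM with a median of 59.3 in tumor CM (log2 fold change -1.68 ± 0.27, FDR 0.000197). Cxcl14 fell by 1.22 on the log2 scale (FDR 0.0246), and it was not past the FDR without replicate 10, 11 or 12. Its level in replicate 18 was 814 CPM against 833 CPM in the lowest control library.

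The promoters of the inflammatory genes that rose are shown for the kappa-B element, whose letters many of them carried. This binding sequence of NF-kB was searched on both strands in RefSeq promoter windows of GRCm38.p6 that run from 250 bases before to 50 bases after a start. It occurred in 19 of the 47 windows (40.4%) of those genes of the chemokine, interleukin, NF-kB, acute-phase and complement lists that rose, of which 38 of 52 had a window. It occurred in 570 of 10733 windows (5.3%) of well-expressed genes and in 4.5% of all 32851 windows. The shares were 7.2% in the windows of all well-expressed genes that rose, 4 of 35 (11.4%) in those of the members of the same lists that did not rise, and 10 of 34 (29.4%) among the risen members without the NF-kB list, which consists in part of genes known as NF-kB targets. Windows of 1 gene were counted separately, and 17 of the 38 genes had a match. The AP-1 letters TGAGTCA or TGACTCA were in 5 of the 47 windows (10.6%), against 5 of 35 (14.3%) for the members that did not rise, and the CHR letters TTTGAA or TTCGAA in 10 of the 47 (21.3%), against 1 of 35 (2.9%). The 3 windows below are those of Cxcl1 (chr5:90890995-90891294, plus strand), Cxcl3 (chr5:90785851-90786150, plus strand) and the upstream start of Nfkb2 (chr19:46304487-46304786, plus strand), with every match in capitals.
Cxcl1: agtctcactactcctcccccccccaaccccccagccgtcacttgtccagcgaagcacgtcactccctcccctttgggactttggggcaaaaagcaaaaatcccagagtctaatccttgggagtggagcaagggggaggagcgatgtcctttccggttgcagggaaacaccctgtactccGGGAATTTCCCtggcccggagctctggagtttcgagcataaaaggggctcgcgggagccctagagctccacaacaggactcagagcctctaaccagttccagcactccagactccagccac
Cxcl3: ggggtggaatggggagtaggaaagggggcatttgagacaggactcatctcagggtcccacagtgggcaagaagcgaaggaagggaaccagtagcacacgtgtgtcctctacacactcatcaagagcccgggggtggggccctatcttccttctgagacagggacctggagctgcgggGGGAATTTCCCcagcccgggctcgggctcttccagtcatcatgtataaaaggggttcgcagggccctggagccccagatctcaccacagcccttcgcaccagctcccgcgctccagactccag
Nfkb2: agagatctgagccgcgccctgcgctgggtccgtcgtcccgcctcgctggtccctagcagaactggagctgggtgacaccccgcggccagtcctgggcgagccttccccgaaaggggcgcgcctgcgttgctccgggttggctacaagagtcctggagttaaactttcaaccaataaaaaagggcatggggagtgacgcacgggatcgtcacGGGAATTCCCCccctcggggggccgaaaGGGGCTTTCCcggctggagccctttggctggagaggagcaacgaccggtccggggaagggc
Cxcl1 and Cxcl3 carried the same 11 letters, 2 overlapping matches that began 71 and 73 bases before the start. A match is a description of the letters and does not show binding in these cells.

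NF-kB subunits and their feedback genes rose in 14 of 24 well-expressed members and fell in 2, with a median of 0.27. Nfkb1, which encodes the p50 precursor, measured 115, 119 and 120.2 CPM in control medium and 219 to 274 CPM with a median of 239 in tumor CM (log2 fold change 1.05 ± 0.07, FDR 3.44e-08). Relb measured 19.3, 15.0 and 17.4 CPM and then 31.8 to 46.2 CPM with a median of 39.3 (log2 fold change 1.17 ± 0.11, FDR 1.25e-06), and Nfkb2, the partner of RelB, rose by 0.68 ± 0.07 (FDR 4.74e-06). Birc3, an inhibitor of apoptosis induced by NF-kB, rose by 1.36 ± 0.14 (FDR 3.63e-06). The groups did not overlap in these 4 genes. Map3k14, the kinase that drives the non-canonical branch with RelB and p52, went the other way and fell by 0.68 on the log2 scale (FDR 0.000302), and the other gene that fell, Tnip2, was not past the FDR without replicate 11, 12, 14 or 17 or in a fit of the 9 CD26+ libraries alone.

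The interleukin and colony-stimulating factor list rose in 6 of 10 well-expressed members and fell in 3, with a median of 0.86. Il6, which signals through gp130 to Stat3, measured 15.5, 12.4 and 14.0 CPM in control medium and 68.6 to 164 CPM with a median of 103 in tumor CM (log2 fold change 2.99 ± 0.35, FDR 9.17e-06). The related Lif measured 70.3, 37.3 and 57.6 CPM and 111 to 187 CPM with a median of 164 (log2 fold change 1.52 ± 0.17, FDR 6.79e-06). Il33, an alarmin stored in the nucleus, measured 5.75, 14.7 and 11.7 CPM and 22.96 to 226 CPM with a median of 112 (log2 fold change 3.34 ± 0.59, FDR 0.000494). The groups did not overlap in these 3 genes. Csf1, the macrophage growth factor, rose by 0.63 ± 0.10 (FDR 0.000172). Il11 and Il1rn fell. Il1rn encodes the interleukin 1 receptor antagonist, and it measured 355, 376 and 351 CPM in control medium and 6.08 to 133 CPM with a median of 16.2 in tumor CM (log2 fold change -3.41 ± 0.62, FDR 0.000649). The whole CM group lay below the controls, and the highest CM value was that of replicate 18, without which the log2 fold change was -4.64. Il11, a gp130 cytokine linked to fibrosis, measured 571, 494 and 595 CPM and 76.3 to 385 CPM with a median of 228 (log2 fold change -1.29 ± 0.37, FDR 0.0144). The third to fall, Clcf1, was not past the FDR without replicate 10.

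Cytokine receptors and Stat feedback genes rose in 15 of 38 well-expressed members and fell in 6, the latter near the share of all well-expressed genes. Il1rl1, the receptor for Il33, rose from 1531, 1585 and 1552 CPM to a range of 2884 to 7687 CPM with a median of 6179.7 (log2 fold change 1.87 ± 0.25, FDR 2.94e-05). Il1rap, its co-receptor and that of the interleukin 1 receptor, rose by 1.13 ± 0.12, Il6ra by 1.20 ± 0.14, Ifngr2 by 0.95 ± 0.09 and Stat5a by 1.32 ± 0.13. Il17ra fell from 115, 125 and 112 CPM to a range of 32.8 to 73.9 CPM with a median of 44.1 (log2 fold change -1.34 ± 0.18, FDR 3.74e-05), and Stat3 and Socs2 fell by 0.26 and 0.63 on the log2 scale (FDR 0.00139 and FDR 9.02e-05). In the TNF superfamily, 5 of 13 well-expressed members rose and 4 fell, with 2 risen without replicate 11 and 2 fallen without replicate 12. The death receptor Fas rose by 2.08 ± 0.20 (FDR 1.2e-06), and Tnfsf11, the osteoclast factor RANKL, fell by 1.78 (FDR 0.00753).

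Lipopolysaccharide sensing and acute-phase genes rose in 16 of 23 well-expressed members and fell in none, with a median of 0.95. Saa3, an acute-phase apolipoprotein, had the largest fitted step of the well-expressed genes. It measured 0.648, 1.70 and 0.371 CPM in control medium and 24.6 to 1720.2 CPM with a median of 1136 in tumor CM, where replicate 18 held the lowest value and the next was 1066 CPM (log2 fold change 10.26 ± 1.41, FDR 4.86e-05). Without replicate 11 its log2 fold change was 11.10. Steap4, a metalloreductase induced by cytokines, measured 3.16, 2.74 and 2.67 CPM and 17.2 to 133 CPM with a median of 78.9 (log2 fold change 4.84 ± 0.59, FDR 1.52e-05). Irak3, which restrains Toll-like receptor signals, measured 15.1, 17.2 and 16.9 CPM and 57.0 to 97.4 CPM with a median of 75.7 (log2 fold change 2.22 ± 0.17, FDR 1.48e-07). The secreted protease inhibitor Slpi rose by 1.97 ± 0.20 and Serpina3g by 2.68 ± 0.29. Serpina genes form a cluster of near-identical copies whose reads the counting could split, so single members of that family are uncertain. As a group, all 7 well-expressed genes whose symbol begins with Serpina rose, with a median of 2.26, beside 16.8% of all well-expressed genes.

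Complement genes rose in 7 of 16 well-expressed members and fell in 1, with a median of 0.36. C3, the central component, measured 76.1, 76.0 and 64.8 CPM in control medium and 273 to 1409 CPM with a median of 1191 in tumor CM (log2 fold change 3.90 ± 0.39, FDR 2.25e-06). Serping1, the C1 inhibitor, measured 529, 637 and 548 CPM and 949 to 1819 CPM with a median of 1447 (log2 fold change 1.35 ± 0.21, FDR 0.000157). The C1 proteases C1s1, C1s2 and C1ra rose by 2.06 ± 0.26, 2.13 ± 0.26 and 1.34 ± 0.19, and C1s1 and C1s2 are close copies. Neither group overlapped the other in these genes. The list gene that fell was C1qtnf6, a collagen-like secreted protein that is no complement component.

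Prostaglandin genes rose in 10 of 14 well-expressed members and fell in none, with a median of 0.47. Ptgs2, the inducible cyclooxygenase, measured 566, 400.4 and 519.7 CPM and 669 to 1104 CPM with a median of 879.6 (log2 fold change 0.87 ± 0.16, FDR 0.000546). Ptges, which makes prostaglandin E2 from its product, measured 60.0, 67.9 and 61.9 CPM and 126 to 332 CPM with a median of 238 (log2 fold change 1.93 ± 0.25, FDR 3.06e-05). The prostaglandin carriers Slco2a1 and Abcc4 rose by 1.33 ± 0.17 and 0.86 ± 0.12, and the prostacyclin receptor Ptgir by 1.65 ± 0.27. Synthesis, transport and a receptor thus moved in the same direction.

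Interferon-stimulated genes rose in 7 of 15 well-expressed members with small steps and a median of 0.30, and none fell. That count was 2 without replicate 12, 3 without replicate 11, 13, 14 or 17 or in a fit of the 9 CD26+ libraries alone, and 4 without replicate 16 or with upper-quartile scaling. Gbp2 rose by 1.13 ± 0.24 (FDR 0.00211) and Ifit2 by 0.83 ± 0.13 (FDR 0.000218). In class I antigen presentation 7 of 19 members rose and 1 fell. B2m, the light chain of all class I molecules, measured 230.3, 227 and 231 CPM and 257 to 328 CPM with a median of 305 (log2 fold change 0.39 ± 0.06, FDR 9.99e-05). H2-T10 and H2-T22, non-classical class I genes, rose by 3.23 ± 0.24 and 2.54 ± 0.20, and class I genes are near copies of each other whose reads may be shared. Leukocyte adhesion and checkpoint ligands rose in 6 of 13 members and fell in 1, with 3 risen without replicate 11 or 17 or in a fit of the 9 CD26+ libraries alone. Vcam1 rose from 106, 117 and 91.1 CPM to a range of 121 to 210.3 CPM with a median of 178, and Alcam fell from 141, 136 and 157 CPM to a range of 54.8 to 84.7 CPM with a median of 71.9, with no overlap in either gene (FDR 0.00282 and FDR 1.31e-05).

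**Figure D2:**
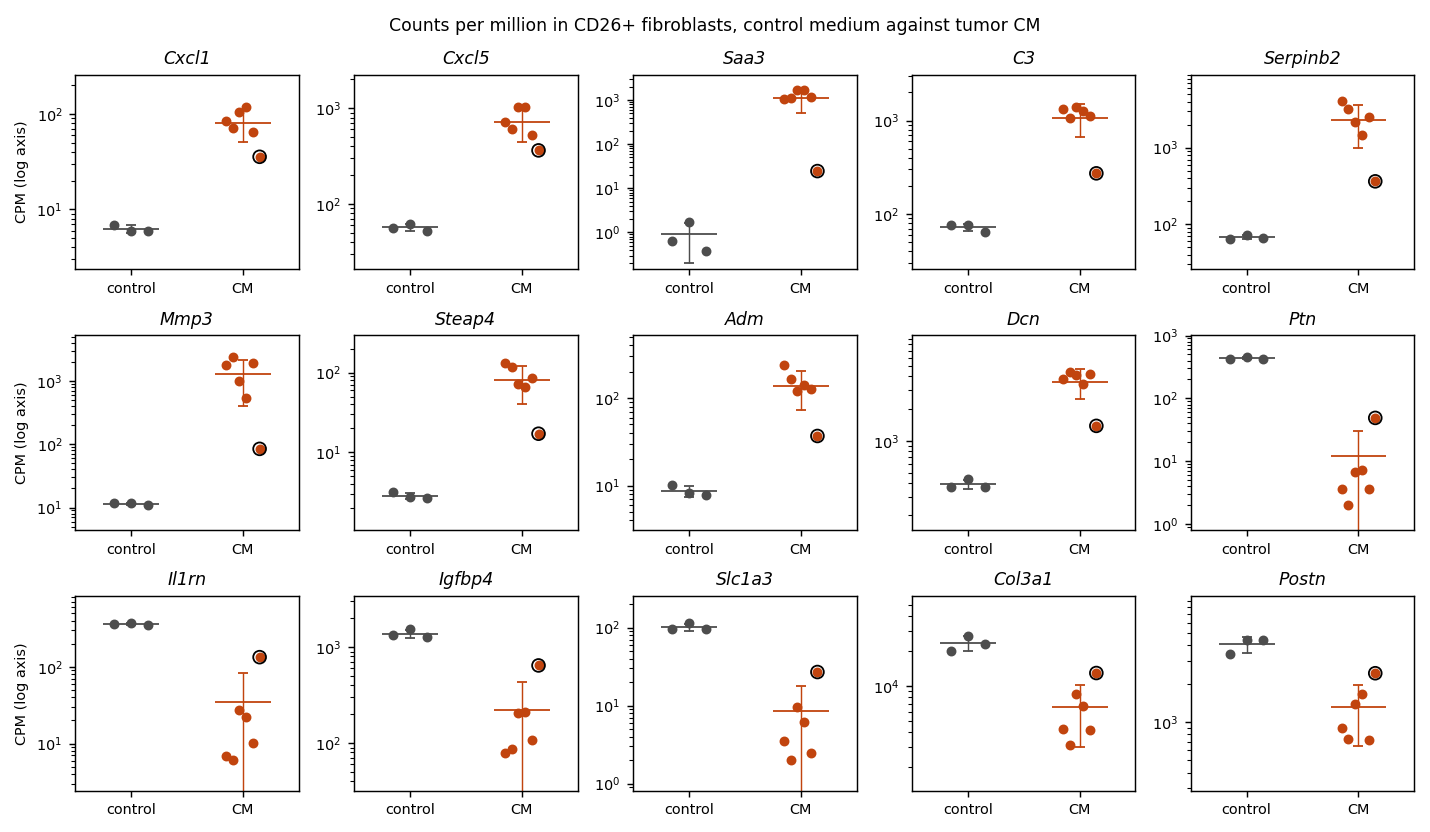
CPM on log axes of 15 genes in the 3 control libraries (grey) and the 6 CM libraries (orange), with lines at the group mean and bars of 1 SD, which leave the panel at the bottom where the SD exceeds the mean. The circled point is replicate 18, which is the CM library nearest to the controls in every panel and lies on the CM side of all 3 controls.

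The collagens ran the other way. Of 13 well-expressed fibrillar and fibril-associated collagens 7 fell and 2 rose, the latter near the share of all well-expressed genes. The list median was -0.64. Of 9 other collagens 5 fell and none rose, with a median of -0.50. Col3a1, a main fibrillar collagen of soft tissue, measured 20174, 27115 and 23116 CPM in control medium and 3112 to 12952 CPM with a median of 5526 in tumor CM (log2 fold change -1.82 ± 0.39, FDR 0.00203). All CM libraries stayed below the controls, and replicate 18 was the highest of them. Col14a1, which sits on the surface of fibrils, fell from 106, 155 and 107 CPM to a range of 14.8 to 58.6 CPM with a median of 29.2 (log2 fold change -1.88 ± 0.36, FDR 0.000936). Col1a1 measured 26728 ± 2916 CPM (SD, n = 3) in control medium and 14686 ± 5019.7 CPM (SD, n = 6) in tumor CM, and Col1a2 measured 16877 ± 1939 CPM (SD, n = 3) in control medium and 10537 ± 2912 CPM (SD, n = 6) in tumor CM. These 2 chains of type I collagen were close to the threshold (FDR 0.0415 and FDR 0.0326). Neither passed it without replicate 11, 12, 13, 14 or 17, nor did Col1a1 without replicate 10. The fibrillar count rested on single libraries, with 2 fallen without replicate 11 and 4 without replicate 10, 12, 13, 14 or 17, and the count of other collagens was 1 without replicate 11, 12, 14 or 17, 2 without replicate 10 or 13, and 3 without replicate 15 or in a fit of the 9 CD26+ libraries alone. Col24a1 and Col5a3 rose, by 1.76 ± 0.20 and 0.82 ± 0.19 (FDR 7.1e-06 and FDR 0.00353).

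Enzymes that hydroxylate, trim and crosslink collagen fell in 9 of 26 well-expressed members and rose in 1, with a median of -0.28. Pcolce2, an enhancer of procollagen cleavage, measured 20.4, 22.9 and 21.3 CPM in control medium and 2.78 to 9.56 CPM with a median of 4.41 in tumor CM (log2 fold change -2.09 ± 0.22, FDR 3.56e-06). Loxl4, a lysyl oxidase, and Plod3, a lysyl hydroxylase, fell by 0.87 and 0.56 on the log2 scale (FDR 1.82e-05 and FDR 0.00687). Lox itself measured 7028 ± 351 CPM (SD, n = 3) in control medium and 5786 ± 1579 CPM (SD, n = 6) in tumor CM and did not pass the test (FDR 0.463). The single member that rose was Adamts14, a procollagen protease, from 10.8, 12.0 and 12.9 CPM to a range of 23.1 to 100.1 CPM with a median of 70.5 (log2 fold change 2.55 ± 0.36, FDR 6.16e-05). The fallen count was 4 without replicate 11 or 12, 15 without replicate 15 and 14 without replicate 18 or with upper-quartile scaling.

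Elastic fibre and matricellular genes fell in 15 of 31 well-expressed members and rose in 5, the latter near the share of all well-expressed genes. The list median was -0.24. Postn, a matricellular protein of collagen-rich tissue, measured 3401, 4423 and 4421 CPM and 719.8 to 2416 CPM with a median of 1148 (log2 fold change -1.65 ± 0.35, FDR 0.0019). Fn1, fibronectin, measured 13902, 16513 and 16532 CPM and 9556 to 12739.7 CPM with a median of 10912 (log2 fold change -0.52 ± 0.12, FDR 0.00436). The fibrillin gene Fbn1 fell by 0.80 and Fbn2 fell by 1.75 on the log2 scale (FDR 0.00448 and FDR 1.97e-05). Tnc and Thbs1, tenascin C and thrombospondin 1, went against the list. Thbs1 measured 4504, 4297 and 4479 CPM and 8252 to 14014 CPM with a median of 11279.9 (log2 fold change 1.35 ± 0.15, FDR 4.74e-06), and Tnc measured 4210.4, 4398 and 5074 CPM and 6548 to 12644 CPM with a median of 10778 (log2 fold change 1.14 ± 0.16, FDR 5.18e-05). In all of these genes the groups were apart. Tnn, tenascin N, fell from 41.5, 65.2 and 49.8 CPM to a range of 1.82 to 15.4 CPM with a median of 7.94 (log2 fold change -2.71 ± 0.47, FDR 0.00043), so tenascin genes moved in both directions.

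Of 10 well-expressed small proteoglycans 3 rose, 1 fell and 6 did not pass the FDR. Dcn, decorin, which binds collagen fibrils and TGF-beta, rose from 368, 436 and 366 CPM to a range of 1378 to 4408 CPM with a median of 3986 (log2 fold change 3.19 ± 0.31, FDR 1.48e-06). Prelp rose from 11.1, 12.2 and 9.94 CPM to a range of 85.7 to 169 CPM with a median of 135 (log2 fold change 3.54 ± 0.32, FDR 9.78e-07) and Lum by 1.62 ± 0.39 (FDR 0.00465), whereas Aspn, asporin, fell from 38.0, 58.7 and 65.2 CPM to a range of 4.43 to 28.0 CPM with a median of 7.28 (log2 fold change -2.33 ± 0.46, FDR 0.00125). The groups did not overlap in these 4 genes, and Bgn, biglycan, did not pass the test at a log2 fold change of -0.21 ± 0.13 (FDR 0.243). Of the hyaluronan and large proteoglycan genes 5 of 19 rose and 7 fell, with 3 risen without replicate 10, 11 or 12. Cemip, which starts the breakdown of hyaluronan, measured 111, 106 and 119 CPM and 490.0 to 1101 CPM with a median of 793 (log2 fold change 2.84 ± 0.31, FDR 4.83e-06). Has1, a hyaluronan synthase, measured 29.3, 32.4 and 26.9 CPM and 6.06 to 16.7 CPM with a median of 10.6 (log2 fold change -1.39 ± 0.22, FDR 0.000175), and Vcan, versican, measured 2271, 2629 and 2517 CPM and 1035 to 1719 CPM with a median of 1181 (log2 fold change -0.97 ± 0.14, FDR 5.78e-05). The synthase and the hyaluronan-binding versican thus fell while Cemip rose. Of 24 basement membrane genes 5 rose, near the share of all well-expressed genes, and 2 fell, with 2 risen without replicate 10 or 11 and 3 without replicate 12, 14 or 17, and the nidogens Nid1 and Nid2 rose by 0.55 ± 0.14 and 1.20 ± 0.25 (FDR 0.00652 and FDR 0.00171).

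Matrix metalloproteinases and their Timp inhibitors rose in 10 of 16 well-expressed members and fell in 1, with a median of 0.52. Mmp3, stromelysin 1, measured 11.8, 11.6 and 11.1 CPM in control medium and 84.7 to 2404 CPM with a median of 1402 in tumor CM (log2 fold change 6.81 ± 0.88, FDR 2.52e-05), and the related Mmp10 measured 3.80, 2.22 and 2.97 CPM and 7.77 to 273 CPM with a median of 129.7 (log2 fold change 5.45 ± 1.01, FDR 0.000709). In both, replicate 18 was the lowest CM library and still above the controls. Timp3, an inhibitor bound to the matrix, rose by 0.79 ± 0.14 (FDR 0.000426), while the membrane-bound Mmp14 fell by 0.38 on the log2 scale (FDR 0.00128). ADAM and ADAMTS proteases rose in 10 of 22 members and fell in 5, with 3 fallen without replicate 10. Adamts9 and Adamts7 rose by 1.73 ± 0.19 and 1.55 ± 0.16, and the protease-free relative Adamtsl1 fell by 1.36 on the log2 scale (FDR 0.00485).

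Plasminogen activation and serpin genes rose in 7 of 21 well-expressed members and fell in 3, the latter near the share of all well-expressed genes. The fallen count was 1 without replicate 11 or in a fit of the 9 CD26+ libraries alone. Serpinb2, the plasminogen activator inhibitor 2, measured 64.8, 71.9 and 66.7 CPM in control medium and 363 to 4109.8 CPM with a median of 2359.8 in tumor CM (log2 fold change 5.08 ± 0.61, FDR 1.2e-05). Plau, the urokinase that it blocks, fell by 0.66 on the log2 scale (FDR 0.000417). This inhibitor and its protease therefore moved apart. Of the clotting genes, the initiator F3 (tissue factor) rose by 1.56 ± 0.16 and the anticoagulant receptor Thbd by 2.36 ± 0.22 (FDR 3.41e-06 and FDR 9.78e-07).

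Contractile genes of myofibroblasts showed little. Of 35 well-expressed members 2 rose and 5 fell, near or under the shares of all well-expressed genes, and their median was -0.06. The fallen count was 2 without replicate 11, 3 without replicate 10 or 12 and 8 without replicate 18. Csrp2 fell from 185, 208 and 197 CPM to a range of 71.4 to 129 CPM with a median of 78.8 (log2 fold change -1.14 ± 0.16, FDR 7.23e-05), and Vim, vimentin, fell by 0.35 on the log2 scale (FDR 0.00185). Of 19 integrins 4 rose, near the share of all well-expressed genes, and 1 fell, with 2 risen without replicate 10, and Itgav rose by 0.46 ± 0.08 (FDR 0.000345). CCN and YAP target genes rose in 5 of 19 members and fell in 2, with 3 risen without replicate 10 and 4 fallen without replicate 16 or with upper-quartile scaling. Axl, a receptor kinase, and Ccn1, a matricellular ligand of integrins, rose by 0.96 ± 0.08 and 0.98 ± 0.14 (FDR 6.15e-07 and FDR 7.47e-05).

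**Figure D3:**
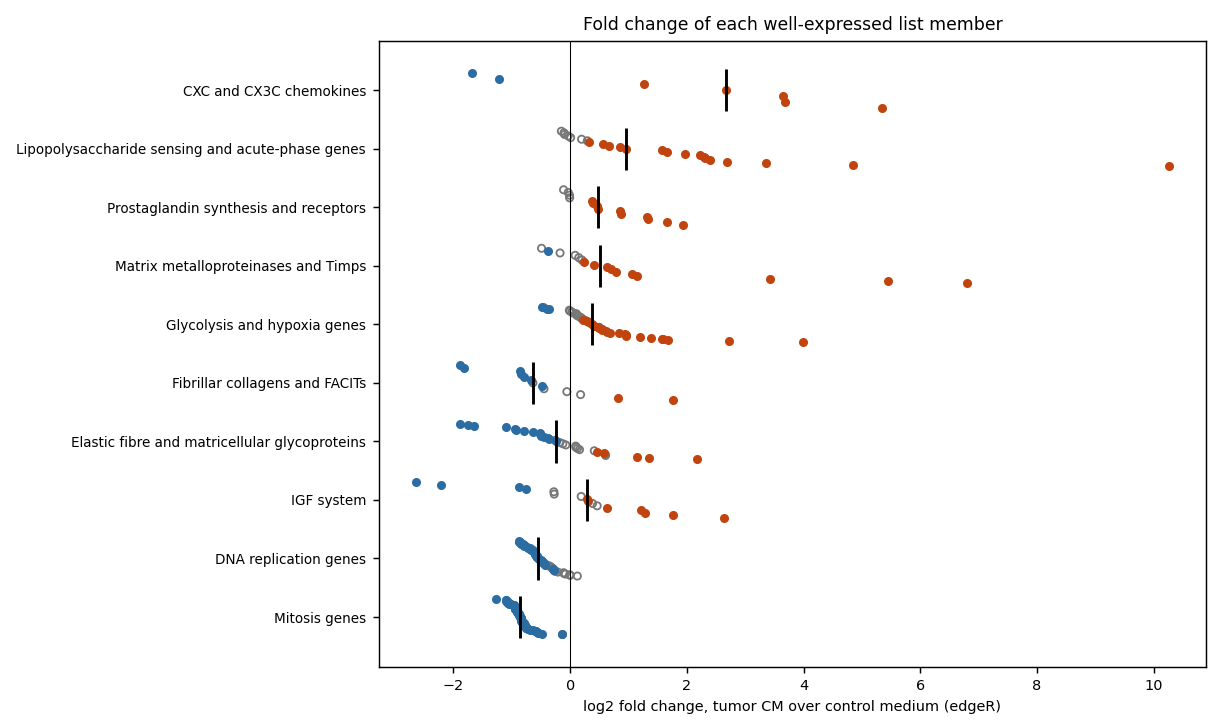
Log2 fold change (tumor CM over control medium, edgeR) of each well-expressed member of 10 gene lists, with members that rose in orange, fell in blue and did not pass the FDR as open circles. The black bar is the list median, 2.67 for the CXC and CX3C chemokines and -0.86 for the mitosis genes, and the IGF system is split into strong changes on both sides.

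Mitosis genes fell almost throughout. Of 69 well-expressed members 67 fell and none rose, with a median of -0.86 against -0.01 for all well-expressed genes. The members summed to 3652, 3772 and 3896 CPM in the control libraries, and in replicates 13 to 18 to 1363, 1779, 2091, 2131, 2105 and 3787 CPM. Replicate 18 thus lay within the range of the controls, and the other 5 CM libraries lay well below it. The CM group as a whole was below all controls in 22 members, beside 13.4% of all well-expressed genes. The CM libraries without replicate 18 were below all controls in 69 of 69. That count was added after seeing the data and was not made for all well-expressed genes, so it has no share to stand beside. Cdc20, the activator of the anaphase-promoting complex, measured 78.0, 73.6 and 77.0 CPM in control medium and 19.3 to 57.1 CPM with a median of 35.8 in tumor CM (log2 fold change -1.10 ± 0.19, FDR 0.000374). Plk1, a kinase of mitotic entry, measured 50.2, 50.9 and 55.9 CPM and 14.6 to 45.4 CPM with a median of 22.3 (log2 fold change -1.06 ± 0.20, FDR 0.000931). Top2a, which untangles chromosomes, measured 309, 291 and 313 CPM and 75.8 to 292 CPM with a median of 129 (log2 fold change -1.09 ± 0.25, FDR 0.00414), with overlap through replicate 18. In a fit of the 9 CD26+ libraries alone 46 of the 69 fell.

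The promoters of mitosis genes are shown for a pair of elements they shared. CHR elements, here the letters TTTGAA or TTCGAA on either strand, occurred in 49 of their 62 windows (79.0%), against 13.6% of the windows of well-expressed genes and 19.2% of all windows. The letters CCAAT, read on both strands, occurred in 45 of the 62 (72.6%), against 37.4% of the windows of well-expressed genes and 37.4% of all windows. The windows of Plk1 (chr7:122159185-122159484, plus strand) and Cdc20 (chr4:118437294-118437593, minus strand) follow, with both kinds of match in capitals, and no match overlapped another.
Plk1: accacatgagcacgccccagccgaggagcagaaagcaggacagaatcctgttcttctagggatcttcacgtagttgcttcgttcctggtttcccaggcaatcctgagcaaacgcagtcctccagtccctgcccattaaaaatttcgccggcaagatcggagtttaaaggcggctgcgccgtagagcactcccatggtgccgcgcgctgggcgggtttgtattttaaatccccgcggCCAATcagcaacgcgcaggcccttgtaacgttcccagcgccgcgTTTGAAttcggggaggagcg
Cdc20: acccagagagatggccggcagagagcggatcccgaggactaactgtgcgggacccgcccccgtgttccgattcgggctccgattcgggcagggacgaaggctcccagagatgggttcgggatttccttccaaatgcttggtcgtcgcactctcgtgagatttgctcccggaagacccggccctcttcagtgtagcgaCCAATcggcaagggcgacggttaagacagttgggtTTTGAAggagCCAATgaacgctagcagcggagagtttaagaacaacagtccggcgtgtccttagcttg
Of the 69 genes 59 had a window in the RefSeq table. In the windows of DNA replication genes the CHR letters were found in 8 of 51 (15.7%) and CCAAT in 28 of 51 (54.9%).

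DNA replication genes fell in 33 of 54 well-expressed members and none rose, with a median of -0.55. Their sum was 2482, 2496 and 2500.2 CPM in control medium and 1156, 1429, 1839.7, 1737, 1568 and 2746 CPM in replicates 13 to 18. Again the first 5 were below and replicate 18 was above every control. The count was 49 without replicate 18, 13 without replicate 10 or 12, 16 without replicate 11, 21 without replicate 14 or 17, and 8 in a fit of the 9 CD26+ libraries alone. Gins4, a subunit of the replicative helicase complex, measured 31.4, 36.6 and 33.5 CPM and 14.1 to 26.2 CPM with a median of 18.0 (log2 fold change -0.85 ± 0.13, FDR 0.000111). Among genes that brake or pace the cycle, Cdkn1a (p21) rose from 154, 132 and 149 CPM to a range of 196 to 356 CPM with a median of 272 (log2 fold change 0.89 ± 0.13, FDR 7.23e-05), whereas Cdkn1b (p27) and Cdkn2c (p18) fell by 0.64 and 0.70 on the log2 scale. The G1 drivers Ccnd2 and Cdk6 rose by 0.87 ± 0.09 and 1.32 ± 0.25 (FDR 4.73e-06 and FDR 0.00083). That list as a whole had 8 risen and 5 fallen of 34, the latter near the share of all well-expressed genes. The counts were 5 risen without replicate 11 and 8 fallen without replicate 18.

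**Figure D4:**
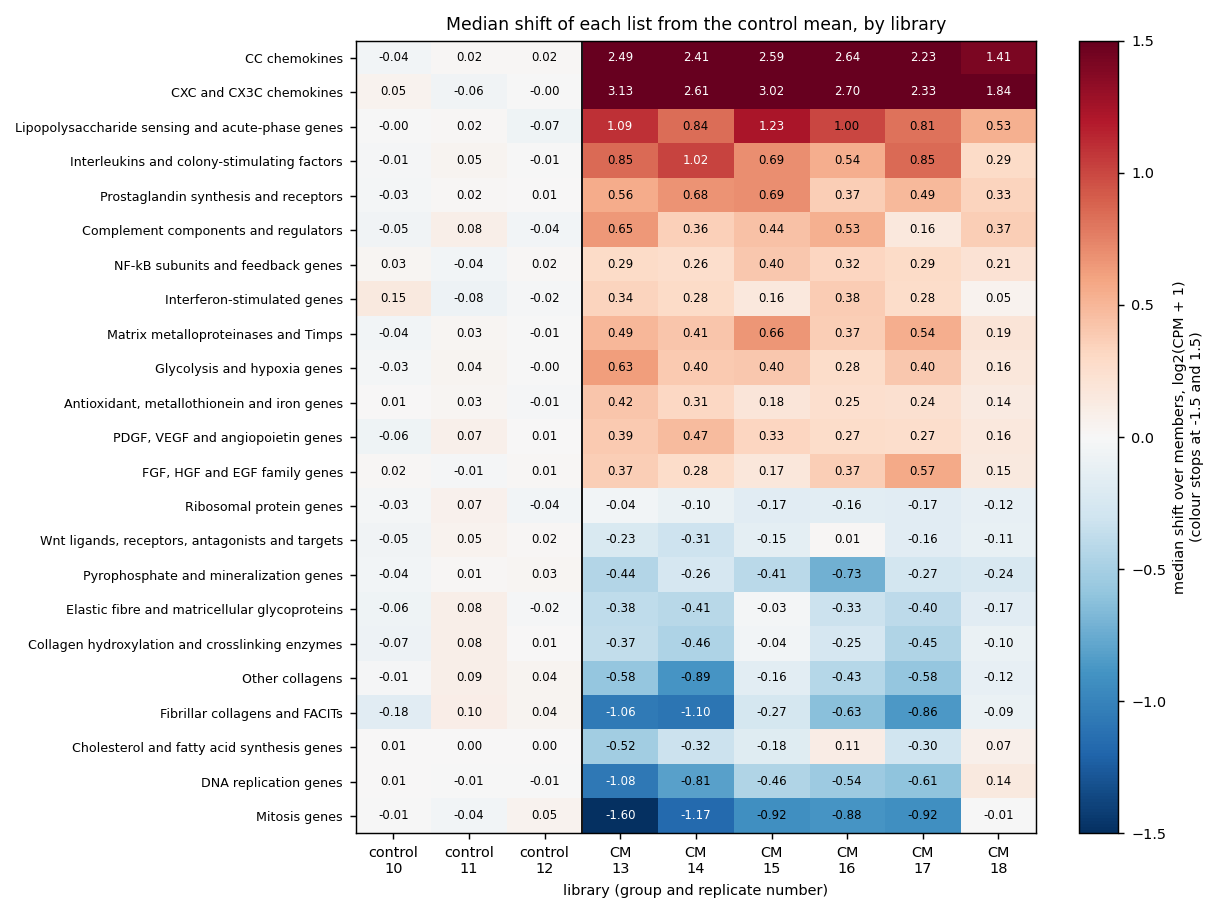
Median shift of the members of 23 gene lists from their control mean, as log2(CPM + 1), in each of the 9 libraries, with colour limits at -1.5 and 1.5. Chemokines were up in all 6 CM libraries, while mitosis genes were down in replicates 13 to 17 and stood at -0.01 in replicate 18.

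The sizes of these shifts differed among the CM libraries. For mitosis genes the median shift from the control mean was -1.60 in replicate 13, the strongest, and -0.88 in replicate 16. Fibrillar collagens shifted by -1.06 and -1.10 in replicates 13 and 14, by -0.27 in replicate 15 and by -0.09 in replicate 18, beside -0.18 to 0.10 in the controls. CXC chemokines shifted by at least 1.84 in every CM library. Replicate 15, given CM of line 18-MCB-12, thus held a chemokine shift of 3.02 beside its small shift of the collagens. With 1 CD26+ library per line these differences have no replicate check among the CD26+ NFs. CD26- NFs given the CM of the same 6 lines were not compared here.

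Growth factors that act on epithelium and on vessels made up a further set of changes. In the FGF, HGF and EGF list 12 of 32 well-expressed members rose and 2 fell, with a median of 0.23. Nrg1, a ligand of the ErbB3 and ErbB4 receptors, measured 23.7, 21.8 and 26.4 CPM in control medium and 70.9 to 121 CPM with a median of 105 in tumor CM (log2 fold change 2.08 ± 0.16, FDR 2.22e-07). Ereg, a ligand of the EGF receptor, measured 47.0, 34.6 and 44.9 CPM and 107 to 215 CPM with a median of 189.6 (log2 fold change 2.07 ± 0.22, FDR 4.74e-06). Fgf7, which acts on epithelial cells, rose by 0.89 ± 0.11 (FDR 1.04e-05), and the receptor Fgfr3 fell by 2.22 on the log2 scale (FDR 1.75e-05). Vessel genes rose in 8 of 20 members and fell in 3, the latter near the share of all well-expressed genes. The list median was 0.34. Vegfa measured 236, 216 and 237 CPM and 396 to 672 CPM with a median of 624 (log2 fold change 1.30 ± 0.14, FDR 4.64e-06), and Angpt1, which steadies vessels, fell by 1.32 (FDR 0.000654). Pdgfra, the PDGF receptor that marks fibroblasts, rose from 404, 471 and 443 CPM to a range of 613 to 1141 CPM with a median of 905 (log2 fold change 1.06 ± 0.19, FDR 0.000453). None of these genes overlapped between the groups. Ptn, pleiotrophin, a heparin-binding growth factor outside these lists, had the largest fitted fall of the well-expressed genes, from 429, 457 and 427 CPM to a range of 2.03 to 49.0 CPM with a median of 5.20 (log2 fold change -5.21 ± 0.59, FDR 7.44e-06), with the highest CM value in replicate 18, without which the log2 fold change was -6.56.

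The IGF system changed strongly in both directions, with 7 of 16 well-expressed members risen and 4 fallen. Igfbp4, an inhibitory IGF carrier, measured 1343, 1539.5 and 1263 CPM in control medium and 79.7 to 644 CPM with a median of 156 in tumor CM (log2 fold change -2.64 ± 0.50, FDR 0.000907), and its log2 fold change without replicate 18 was -3.33. Pappa, the protease that cuts Igfbp4, measured 144, 174 and 155 CPM and 15.2 to 65.5 CPM with a median of 32.4 (log2 fold change -2.22 ± 0.29, FDR 2.49e-05). Stc2 and Stc1, stanniocalcins that block this protease, rose by 2.63 ± 0.49 and 1.27 ± 0.20 (FDR 0.000763 and FDR 0.000161). Carrier and protease thus fell together and the protease inhibitors rose. Igfbp3 rose from 40.3, 60.2 and 50.1 CPM to a range of 87.5 to 278 CPM with a median of 164 (log2 fold change 1.77 ± 0.28, FDR 0.000179).

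TGF-beta and BMP genes rose in 13 of 46 well-expressed members and fell in 8, the latter near the share of all well-expressed genes, with 3 fallen without replicate 11 and 5 without replicate 10 or without the low-count filter. The activin chain Inhbb rose by 1.81 ± 0.25 and the receptor Acvrl1 by 1.48 ± 0.18, while the ligand Tgfb3 fell by 0.91 on the log2 scale (FDR 0.0053). Wnt genes fell in 12 of 38 members and rose in 4, with a median of -0.13 and 7 fallen without replicate 11. Sfrp1 and Sfrp2, secreted Wnt antagonists, fell by 1.50 and 1.00 on the log2 scale (FDR 0.0133 and FDR 0.000334). Lgr4, the receptor of the R-spondins, measured 194, 207 and 199.6 CPM and 88.8 to 138 CPM with a median of 95.1 (log2 fold change -0.94 ± 0.13, FDR 6.95e-05), and Wnt5a fell by 0.59 (FDR 0.00372). Among the 4 that rose were Nkd2, an intracellular Wnt antagonist, by 1.58 ± 0.19, the Wnt receptor Ror2 by 0.30 ± 0.07 and the transcription factor Tcf7l2 by 0.54 ± 0.08 (FDR 1.32e-05, FDR 0.00404 and FDR 0.000119). Receptors and antagonists of this pathway thus stood on both sides. Of 19 Notch and Hedgehog genes 4 rose and 5 fell, not far from the shares of all well-expressed genes. Hhip, a decoy of Hedgehog ligands, fell by 2.17 on the log2 scale (FDR 0.000315), and the receptor Ptch1 rose by 0.91 ± 0.10 (FDR 4.28e-06).

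Guidance genes, first known from growing axons, held 2 of the 3 fallen genes with the smallest p, both of them plexins. Plxna2, a semaphorin co-receptor, measured 46.3, 47.3 and 45.0 CPM in control medium and 16.1 to 21.0 CPM with a median of 17.9 in tumor CM (log2 fold change -1.36 ± 0.10, FDR 1.02e-07). In the semaphorin and plexin list 8 of 21 members rose and 3 fell, the latter near the share of all well-expressed genes. That list's risen count was 3 without replicate 10, 4 without replicate 11 or 12 and 5 without replicate 13, 14 or 17. Its fallen count was 7 without replicate 16, 6 with upper-quartile scaling and 5 with DESeq2 or in a fit of the 9 CD26+ libraries alone. Of the 13 well-expressed Sema genes 6 rose and none fell, beside 16.8% and 15.7% of all well-expressed genes. Sema5a rose by 1.62 ± 0.28 (FDR 0.000427), with replicate 18 at 23.1 CPM beside a control maximum of 22.8 CPM. Of the ephrin, Slit and netrin genes 8 of 32 rose and 10 fell, with 5 risen without replicate 11, 13, 14 or 17. The ephrin receptor Epha3 measured 28.8, 39.5 and 41.8 CPM and 5.68 to 15.9 CPM with a median of 6.67 (log2 fold change -2.15 ± 0.26, FDR 1.33e-05). The netrin receptor Unc5c and the Slit receptor Robo1 fell by 1.63 and 1.07 on the log2 scale (FDR 7.47e-05 and FDR 4.99e-05). Among the members that rose were Flrt3, a ligand of Unc5 receptors, by 0.98 ± 0.17 and the ephrin Efnb2 by 0.57 ± 0.12 (FDR 0.000353 and FDR 0.00146).

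Cyclic AMP genes rose in 8 of 47 well-expressed members and fell in 10, shares not far from those of all well-expressed genes, with 4 fallen without replicate 10 or 12, 5 without replicate 14 and 6 without replicate 11. Of 14 well-expressed genes with the Pde symbol, most of them phosphodiesterases that break cyclic AMP or GMP down, 8 fell and 2 rose. Pde3b measured 57.2, 58.7 and 60.3 CPM and 19.5 to 37.4 CPM with a median of 27.0 (log2 fold change -1.10 ± 0.15, FDR 5.02e-05), and Pde8a fell by 0.93 on the log2 scale (FDR 4.86e-05). The kinase subunits Prkar2b and Prkar1b rose by 1.68 ± 0.18 and 1.40 ± 0.18. The Rgs genes, which switch G proteins off, rose in 5 of 9 and fell in none. Of all well-expressed genes 16.8% rose and 15.7% fell, so the 2 risen Pde genes lay near that share. Of 10 potassium channel genes 2 rose and 2 fell, near the shares of all well-expressed genes, among them Kcnq5 with 3.35 ± 0.32 (FDR 1.52e-06) and Kcne4, which fell by 1.52 (FDR 0.00076).

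Glycolysis and hypoxia genes rose in 23 of 42 well-expressed members and fell in 3, with a median of 0.38. Adm, the vasodilator adrenomedullin, measured 10.0, 8.22 and 7.79 CPM in control medium and 36.9 to 237 CPM with a median of 134 in tumor CM (log2 fold change 3.99 ± 0.45, FDR 6.79e-06). Egln3, an oxygen sensor of the hypoxia factors, measured 8.90, 8.82 and 8.24 CPM and 22.6 to 83.5 CPM with a median of 58.6 (log2 fold change 2.71 ± 0.28, FDR 3.32e-06). Slc2a1, the glucose carrier GLUT1, measured 128, 132 and 139 CPM and 184 to 413 CPM with a median of 318 (log2 fold change 1.19 ± 0.17, FDR 8.11e-05). All 3 were higher in every CM library than in any control. Epas1, which encodes the hypoxia factor HIF-2 alpha, rose by 1.67 ± 0.19 (FDR 8.5e-06), while Hk2, a hexokinase, and Ddit4, a stress inhibitor of mTOR, fell by 0.40 and 0.48 on the log2 scale (FDR 0.006 and FDR 0.0115). The hypoxia response core with the letters ACGTGC, on either strand, stood in 10 of the 29 promoter windows (34.5%) of the list genes that rose, of which 19 of 23 had a window, against 5 of 29 (17.2%) for the list genes that did not rise, 8.3% of the windows of well-expressed genes and 5.9% of all windows. The list holds genes known as hypoxia targets. The core is shown in the window of Slc2a1 (chr4:119108495-119108794, plus strand), where the match in capitals begins 36 bases before the start.
Slc2a1: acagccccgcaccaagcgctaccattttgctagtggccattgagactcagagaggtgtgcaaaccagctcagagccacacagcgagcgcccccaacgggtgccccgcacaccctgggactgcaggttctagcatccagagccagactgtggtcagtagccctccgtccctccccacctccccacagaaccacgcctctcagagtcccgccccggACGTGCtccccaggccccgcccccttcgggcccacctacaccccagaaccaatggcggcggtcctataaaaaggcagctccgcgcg

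Antioxidant, metallothionein and iron genes rose in 22 of 43 well-expressed members and fell in 4, with a median of 0.28 and 2 fallen without replicate 10. Mt2, a metallothionein that binds zinc and copper, measured 19.6, 20.7 and 18.4 CPM and 63.3 to 206 CPM with a median of 147 (log2 fold change 2.79 ± 0.30, FDR 4.64e-06). Fth1, the ferritin heavy chain, measured 655, 650.0 and 595 CPM and 874 to 1204 CPM with a median of 1075 (log2 fold change 0.75 ± 0.08, FDR 5.14e-06), and the iron importer Slc11a2 rose by 0.80 ± 0.06 (FDR 1.7e-07). The groups did not overlap in any of these 3 genes. Steap3, an endosomal ferrireductase, went down from 238, 258 and 214 CPM to a range of 106 to 141 CPM with a median of 124 (log2 fold change -0.94 ± 0.09, FDR 1.2e-06), and the glutathione transferase Gsta4 fell by 1.23 on the log2 scale (FDR 3.41e-07). Outside the lists, Fmo2, a flavin monooxygenase, rose from 0.971, 1.26 and 1.11 CPM to a range of 10.0 to 285 CPM with a median of 129 (log2 fold change 6.92 ± 0.96, FDR 5.47e-05).

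Cholesterol and fatty acid synthesis genes fell in 9 of 41 well-expressed members and rose in 4, with 2 fallen without replicate 11, 3 without replicate 10 or 12 or in a fit of the 9 CD26+ libraries alone, and 14 without replicate 16. The fatty acid elongase Elovl5 fell by 0.43 on the log2 scale (FDR 0.00261), and Abca1, which exports cholesterol, rose by 0.79 ± 0.18 (FDR 0.00379). Amino acid stress genes under Atf4 fell in 6 of 36 members, near the share of all well-expressed genes, and rose in 2, under it, and Trib3 and Mthfd2 fell by 0.68 and 0.45 on the log2 scale (FDR 0.0017 and FDR 0.000636). Of 56 ribosomal protein genes 18 fell and none rose, with a median of -0.13. Their count was 7 without replicate 11, 8 without the low-count filter and 29 with upper-quartile scaling, and Rps12 measured 497, 546 and 464 CPM and 397 to 456 CPM with a median of 413 (log2 fold change -0.27 ± 0.07, FDR 0.00553). The median shift of this list was between -0.04 and -0.17 in all 6 CM libraries.

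Mineralization and pyrophosphate genes fell in 6 of 13 well-expressed members and rose in 3, with a median of -0.33. Runx2, the transcription factor of the bone lineage, measured 112, 135 and 129 CPM and 68.5 to 85.7 CPM with a median of 73.1 (log2 fold change -0.75 ± 0.07, FDR 6.15e-07), and Enpp1, which makes extracellular pyrophosphate, fell by 0.59 on the log2 scale (FDR 0.00158). Both fell in every CM library relative to all controls. Tnmd, tenomodulin of the tendon lineage, fell from 16.6, 16.9 and 15.4 CPM to a range of 0.75 to 6.25 CPM with a median of 1.92 (log2 fold change -2.76 ± 0.39, FDR 6.69e-05). Of 23 adipogenic genes 6 rose and 4 fell, the latter near the share of all well-expressed genes. Zfp423, a regulator of fat cell precursors, and Dlk1, an inhibitor of their maturation, fell by 1.27 and 1.48 on the log2 scale (FDR 0.000465 and FDR 2.5e-05), and Lpl, lipoprotein lipase, rose by 0.92 ± 0.24 (FDR 0.00941). Of the 6 markers of mature fat cells, Cidec, Lep and Retn were too low to test in either group.

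Markers of CD26+ progenitor fibroblasts did not move as a block, with 4 of 19 well-expressed members risen and 5 fallen, not far from the shares of all well-expressed genes. Pi16, a marker of this population in many tissues, measured 8.17, 9.19 and 6.38 CPM in control medium and 21.1 to 65.0 CPM with a median of 41.3 in tumor CM (log2 fold change 2.37 ± 0.32, FDR 3.98e-05). Dpt, dermatopontin, and Cd248, endosialin, fell by 0.64 and 0.72 on the log2 scale (FDR 0.0032 and FDR 0.000193). Mesenchymal transcription factors rose in 14 of 43 members and fell in 7, the latter near the share of all well-expressed genes. Without replicate 10 the fallen count was 4. Prrx1 measured 779.8, 844 and 835 CPM and 1238 to 1686 CPM with a median of 1451 (log2 fold change 0.83 ± 0.10, FDR 1.31e-05), and Twist2 rose by 1.45 ± 0.23 (FDR 0.000182), whereas Prrx2, the close relative of Prrx1, fell by 0.69 on the log2 scale (FDR 0.00292). Of 17 Hox genes 5 fell and none rose, with 3 fallen without replicate 10 or 11, and Hoxb9 measured 74.6, 91.9 and 90.6 CPM and 21.8 to 50.9 CPM with a median of 26.1 (log2 fold change -1.46 ± 0.22, FDR 0.000135).

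Further strong changes lay outside the lists. The imprinted noncoding RNA H19 fell from 151, 236 and 160.0 CPM to a range of 4.58 to 45.8 CPM with a median of 10.5 (log2 fold change -3.40 ± 0.57, FDR 0.000297). Among 42 well-expressed lincRNA genes 13 rose and 6 fell, beside 16.8% and 15.7% of all well-expressed genes, so the falls lay near that share. Slc1a3, a glutamate carrier, measured 94.8, 114 and 95.4 CPM and 2.03 to 26.9 CPM with a median of 4.83 (log2 fold change -3.62 ± 0.47, FDR 2.52e-05). C1qtnf3, a secreted collagen-like protein, measured 15.2, 23.1 and 24.4 CPM and 0 to 6.08 CPM with a median of 0.441, with 1 CM library at 0 (FDR 0.000257). In these 3 genes the highest CM value was that of replicate 18 and the groups were apart. Without it the log2 fold change was -4.44 for Slc1a3 and -4.34 for C1qtnf3, the latter -3.52 ± 0.58 with it. Gabrg3, a subunit of the GABA receptor, rose from 0.243, 0.741 and 1.26 CPM to a range of 5.18 to 25.8 CPM with a median of 14.2 (log2 fold change 4.26 ± 0.66, FDR 0.000148). Smaller steps with small p were found for Mark1, a microtubule kinase, at 1.30 ± 0.09, Micall2 at 1.17 ± 0.08 and the small GTPase Rab32 at 1.96 ± 0.15, and for Edil3, Tiam2, Golga7 and Foxk1, which fell by 1.89, 1.06, 0.53 and 0.52 on the log2 scale. All 7 lay among the 10 risen or the 10 fallen genes with the smallest p.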

How the data were processed

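Gene counts were compared between 3 libraries of CD26+ NFs in control medium and 6 libraries of CD26+ NFs in tumor CM. The deposited table holds raw counts per gene as the authors counted them, 1 column per library, for 55486 genes, and 1 row that names no gene and holds 0 counts was left out. Libraries were made with a stranded poly(A) kit and, per the labels, sequenced on 2 Illumina instrument models, HiSeq and NovaSeq, without saying which library ran on which. The submitters' processing notes name HISAT2 2.1.0, HTSeq and GRCm38. The annotation release and the strand setting of the counting are not given in the sources used here, so reads of overlapping and antisense genes may be shared.

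Counts were fitted with the quasi-likelihood model of edgeR 4.0.16 in R 4.3.3 (limma 3.58.1) over all 18 libraries in 4 groups, after TMM scaling and the low-count filter of edgeR by group, with Benjamini-Hochberg adjustment over 14273 genes. The common biological coefficient of variation was 0.117. Calls used an FDR limit of 0.05, and a mean of 5 CPM over the 9 libraries set the well-expressed genes. CPM values carry no prior count, library correlations used log2 CPM with a prior count of 2, and shifts by library used log2(CPM + 1). No pair of replicates agreed within sampling noise (chi-square per degree of freedom at least 3.38). Both count models were tested on simulated data with 1 spread per gene in all groups. The chi-square per degree of freedom ran from 4.63 to 59.4 in CM pairs and from 3.38 to 6.34 in control pairs. The simulation does not cover such a difference in spread. Total counts per library, given above, bound the precision of low genes, and counting error is only part of the spread between libraries.

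The members and gene lists were chosen with earlier results of these data known. Named genes were the 10 risen and 10 fallen genes with the smallest p, the 8 with the largest difference of mean CPM and the 8 with the largest fold change in each direction, among well-expressed genes past the FDR whose groups did not overlap. To these came, per list, up to 4 members with the smallest p in the main direction, up to 3 in the other and the member with the highest CPM, and Dpp4. Genes were also grouped by the letters of their symbol before the first digit, which gave 256 groups of 6 or more well-expressed genes. The Serpina, Sema, Pde and Rgs counts were picked from these groups. They were counted in the main fit only, without the alternatives. Alternatives were DESeq2 1.42.0, a fit of the 9 CD26+ libraries, RLE and upper-quartile scaling, no low-count filter, other limits and leaving out each library. Promoter windows came from RefSeq (GRCm38.p6), matched by symbol. Genes without a window were left out of the motif counts. Some genes and alleles are not reported here.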

Additional observations from a re-analysis of the deposited data

Results flagged for a closer look

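Among the 6 CM libraries, a single library stood apart in 8 of 49 named genes and in 4 of the 54 list sums that were examined. The 49 were the genes named for their p, difference of mean CPM or fold change. Apart means that the gap to the nearest library was a larger part of the range than Dixon's 95% critical value allows for 6 samples. Chance gives about 1 in 20 independent groups, but these groups share the same 6 libraries and the genes were chosen in these data. The number of flags can thus not be held against that rate. In 10 of these 12 cases the library was replicate 18, which lay nearer to the controls. The gap was 0.886 of the range for Saa3, where replicate 18 held 24.6 CPM, 0.784 for Dcn (1378 CPM), 0.65 for Steap4 (17.2 CPM), 0.631 for Ccl2 (490 CPM) and 0.627 for Rab32 (68.5 CPM), all low in replicate 18. It was 0.778 for Ank (143 CPM) and 0.637 for Ptn (49.0 CPM), both high in replicate 18. The sums of the acute-phase list (gap 0.637, 1968 CPM) and of the prostaglandin list (0.725, 1983 CPM) were low in replicate 18, and that of the IGF system (0.83, 2149 CPM) was high. Replicate 15 held the other two, a low value of Gsta4 (0.823, 11.7 CPM) and a high sum of the small proteoglycans (0.716, 12133 CPM). The part of the tumor line in these values was not tested. Each line gave 1 of the CD26+ libraries.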

How the results depend on the processing

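The count of 4087 genes past the FDR was 4233 with DESeq2, 3317 in a fit of the 9 CD26+ libraries, 4112 with RLE scaling, 4322 with upper-quartile scaling, 3464 without the low-count filter and 2756 to 4971 on leaving out 1 library, the ends being those without replicates 11 and 18. Among well-expressed genes the count of 3403 ran from 2293 to 4153 on leaving out the same 2 libraries, and was 3928 with a minimum of 1 CPM and 2558 with 20 CPM. The count of 287 genes past the log2 limit of 2 was 252 to 350 on leaving out 1 library, 389 without the low-count filter and 953 with a limit of 1. Upper-quartile scaling moved the split of well-expressed genes from 1755 risen and 1648 fallen to 1528 and 2094, with a median log2 fold change of all genes of -0.04. Fallen genes also outnumbered risen ones without replicate 13 (1473 and 1507), 15 (1622 and 1681), 16 (1672 and 1789) or 18 (1998 and 2155). Of the 313 named genes past the FDR, 310 of the 310 that DESeq2 gave an adjusted p kept their call with it, 298 kept it in the fit of the 9 libraries, and 275 to 313 on leaving out 1 library. Ptn, Slc1a3 and Il1rn got no adjusted p from DESeq2, at log2 fold changes of -5.19, -3.60 and -3.40. None of the 313 changed direction in these settings, while medians of lists that lay near 0 changed sign in some. Counts of 1 to 3 members on the smaller side of a list moved in some settings that are not given beside the list. No paired analysis was possible because the 2 groups share no replicate number or tumor line.

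Among the 9 libraries each CM library stands for 1 line, so within them effects of lines and of single cultures cannot be told apart. The CD26- libraries given the same CM were not used for this. Genes near the FDR, the type I collagen chains among them, depend on single libraries. Genes with a mean under 5 CPM were not described, apart from Dpp4, and for genes with control values near 0, such as Saa3 and Cxcl3, the fold change depends on the prior count of the model.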
